A study of Mus musculus with 4 samples.

Results

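The genes described here encode the proteins of the cytoplasmic ribosome. They were taken by symbol from the 24453 genes of the deposited tables: every symbol of the form Rpl or Rps followed by a number, with the usual suffixes, together with Rplp0, Rplp1, Rplp2 and Rpsa, and without symbols marked as pseudogenes. This gave 86 genes, 53 of the large and 33 of the small ribosomal subunit. A ribosome is built from ribosomal RNA and ribosomal proteins; the large subunit joins amino acids and the small subunit reads the messenger RNA. Ribosomal RNA is cut from a precursor made by RNA polymerase I, whereas the mRNAs of the proteins are made by RNA polymerase II, and many of these mRNAs begin with a run of pyrimidines that ties their translation to growth signals. Growing epithelia need many ribosomes, and several ribosomal proteins are also known for roles in signalling to p53 or in human anaemia and skeletal patterning. The symbol rule also took Rpl32l and Rps4l, which the GENCODE annotation of the build lists as pseudogenes.

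RNA was measured by sequencing in EpCAM-positive cells sorted from the front of the mouse tongue, the part without the circumvallate papilla, at embryonic day 16. EpCAM is an adhesion protein of the epithelial surface, and the cells are those of the lingual epithelium. The 4 libraries were 2 control and 2 Ring1a/b 2KO. By the labels, the 2KO animals carry Krt14-Cre, Ring1a-/- (gene Ring1) and Ring1b flox/flox (gene Rnf2). By this genotype Rnf2 is meant to be cut where the Krt14 promoter of basal epithelial cells drives Cre, and Ring1 to be inactive in every cell; transcript counts of both genes follow below. The products of both genes attach ubiquitin to histone H2A within Polycomb repressive complex 1. The alleles of the controls and the strain are not in the labels, and neither is whether each replicate is a different embryo; p-values therefore rest on the variation among these 4 libraries, part of which may be technical.

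The libraries held 16256569 to 20624055 counts. Ring1 stood at 9.01 and 8.56 CPM (counts scaled to library size) in control replicates 1 and 2 and at 16.8 and 15.0 CPM in 2KO replicates 1 and 2, and Rnf2 at 33.9, 51.2, 62.8 and 62.4 CPM in the same order (adjusted p = 0.101 and 0.126). Neither targeted gene was thus lower in the libraries labelled 2KO, and counts summed over a gene do not reveal a partial deletion, so directions below are those of the libraries labelled 2KO. The 6 markers of basal epithelium were all present, at a summed 13790 and 11436 CPM in control and 9386 and 9861 CPM in the 2KO libraries. Krt5 and Krt14 were lower by the test (adjusted p = 0.0392 and 0.0248). The other 4 did not pass, and of the 6 markers 4 had a negative and 2 a positive log2 fold change. The 10 skeletal muscle markers summed to 33.5 and 210.6 CPM in control and to 24.99 and 45.6 CPM in the 2KO libraries, so that control replicate 2 stood apart. The 10 markers of immune cells summed to 25.7 and 22.6 CPM in control and to 53.5 and 46.4 CPM in the 2KO libraries. Cd68, a lysosomal protein of macrophages, made up most of each sum, at 21.3 and 11.9 CPM in control and 47.1 and 39.0 CPM in the 2KO libraries (adjusted p = 0.0123). Of the 5 immune markers tested, it alone passed, and 3 had a negative log2 fold change. The 10 markers of endothelium summed to 32.1, 27.1, 45.9 and 65.5 CPM; 9 had a positive log2 fold change and none passed. The 10 markers of mesenchyme summed to 400.0 and 483.2 CPM in control and to 482.8 and 452.4 CPM in the 2KO libraries. Of these, 4 had a negative and 6 a positive log2 fold change, and 1 was lower by the test. Of 11 erythroid markers, 6 hemoglobin genes were at 0 in all 4 libraries. The part of these other cells in the results below was not tested. In bulk RNA, fewer cells of a type and less RNA per cell cannot be told apart.

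The ribosomal RNA precursor gene Rn45s and the ribosomal protein genes moved in opposite directions as shares of the counts. Rn45s took 16.7% and 15.3% of the counts in control and 22.9% and 20.2% in the 2KO libraries, and in CPM it was 1.39-fold higher (log2 fold change 0.48, standard error 0.091, adjusted p = 0.00729 by edgeR's quasi-likelihood test with Benjamini-Hochberg adjustment). The call held without each library in turn. The 86 genes together took 1.10% and 1.23% of the counts in control and 0.942% and 1.07% in the 2KO libraries. Both 2KO libraries therefore lay below both control libraries, by a narrow margin. For each count of a ribosomal protein gene there were 15.2 and 12.5 counts of Rn45s in control and 24.3 and 18.9 in the 2KO libraries. Since Rn45s is itself a large part of the total, the shares were also taken of the counts without it. They were then 1.32% and 1.45% in control and 1.22% and 1.34% in the 2KO libraries, and the groups overlapped. Rn45s was listed at 0 FPKM in all 4 libraries, although its counts ran from 2494380 to 4145802. The deposited FPKM values therefore say nothing about it. Counts of this gene do not separate the precursor from the ribosomal RNA cut from it. The part of library preparation in its share was not tested.

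**Figure D1:**
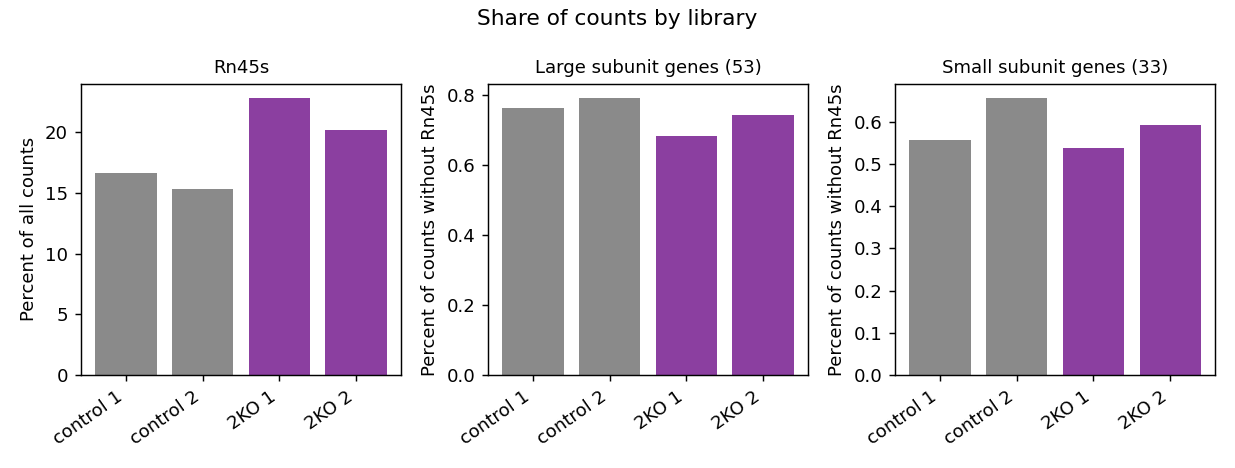
Bars give 1 library each: Rn45s as a percent of all counts on the left, and the summed large and small subunit genes as a percent of counts without Rn45s in the middle and on the right. Both 2KO libraries exceed both controls for Rn45s (22.9% and 20.2% against 16.7% and 15.3%), while the small subunit sums overlap between groups.

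Large and small subunit genes were compared next, because the ribosome holds both in fixed proportion. Large subunit genes took 0.635% and 0.672% of all counts in control and 0.527% and 0.594% in the 2KO libraries. Small subunit genes took 0.463% and 0.556% in control and 0.415% and 0.473% in the 2KO libraries. The first did not overlap between groups and the second did, and the same held for shares of the counts without Rn45s. The ratio of large to small subunit counts was 1.37 and 1.21 in control and 1.27 and 1.26 in the 2KO libraries, so the controls lay on either side of the 2KO libraries. In FPKM, which divides by transcript length, the same ratio was 1.45 and 1.44 in control and 1.31 and 1.34 in the 2KO libraries. That difference rested on 1 gene: without Rpl41 the ratio was 1.09 and 0.969 in control and 1.03 and 0.992 in the 2KO libraries, and the groups overlapped. A few genes carried these sums. Rpl4 alone gave 25.2%, 23.99%, 24.6% and 24.8% of large subunit counts in control replicates 1 and 2 and 2KO replicates 1 and 2.

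Of the 86 genes, 82 had enough counts to be tested. Rpl10l and Rpl26 had no count, Rpl39l had 1 count in all and Rpl30 had 3 to 8 counts a library. By edgeR's quasi-likelihood test with Benjamini-Hochberg adjustment across the 15336 tested genes, 5 of the 82 rose and 9 fell in the 2KO libraries at an adjusted p under 0.05. These are 6.1% and 11.0% of the tested members, beside 7.00% and 4.92% of all genes tested, and 17.1% against 11.9% in either direction. The share called was 28.6% of 35 members with a mean of at least 50 CPM and 8.51% of 47 tested members below it. The share of all genes was not matched for level. The median log2 fold change of the 82 genes was -0.12, beside 0.01 for all genes tested. Control and 2KO libraries did not overlap for 54 of the 82 genes (65.9%), beside 57.7% of all genes tested. Of these, 32 were lower and 22 higher in the 2KO libraries.

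Among 49 large subunit genes tested, 4 rose and 5 fell; 32 had a negative and 17 a positive log2 fold change, with a median of -0.25. Among 33 small subunit genes tested, 1 rose and 4 fell; 15 were negative and 18 positive, with a median of 0.07. Without 2KO replicate 2 the small subunit median was -0.049 and the large one -0.26. On the deposited FPKM values, as log2(FPKM + 1), the medians were -0.039 for the large and 0.17 for the small subunit. The difference between the subunits was not tested, since genes are not replicates. Among members with a mean of at least 50 CPM, 15 of 19 large subunit genes were negative, with a median of -0.30. The 16 small subunit genes of that level were split evenly, 8 negative and 8 positive, with a median of 0.00 when rounded.

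**Figure D2:**
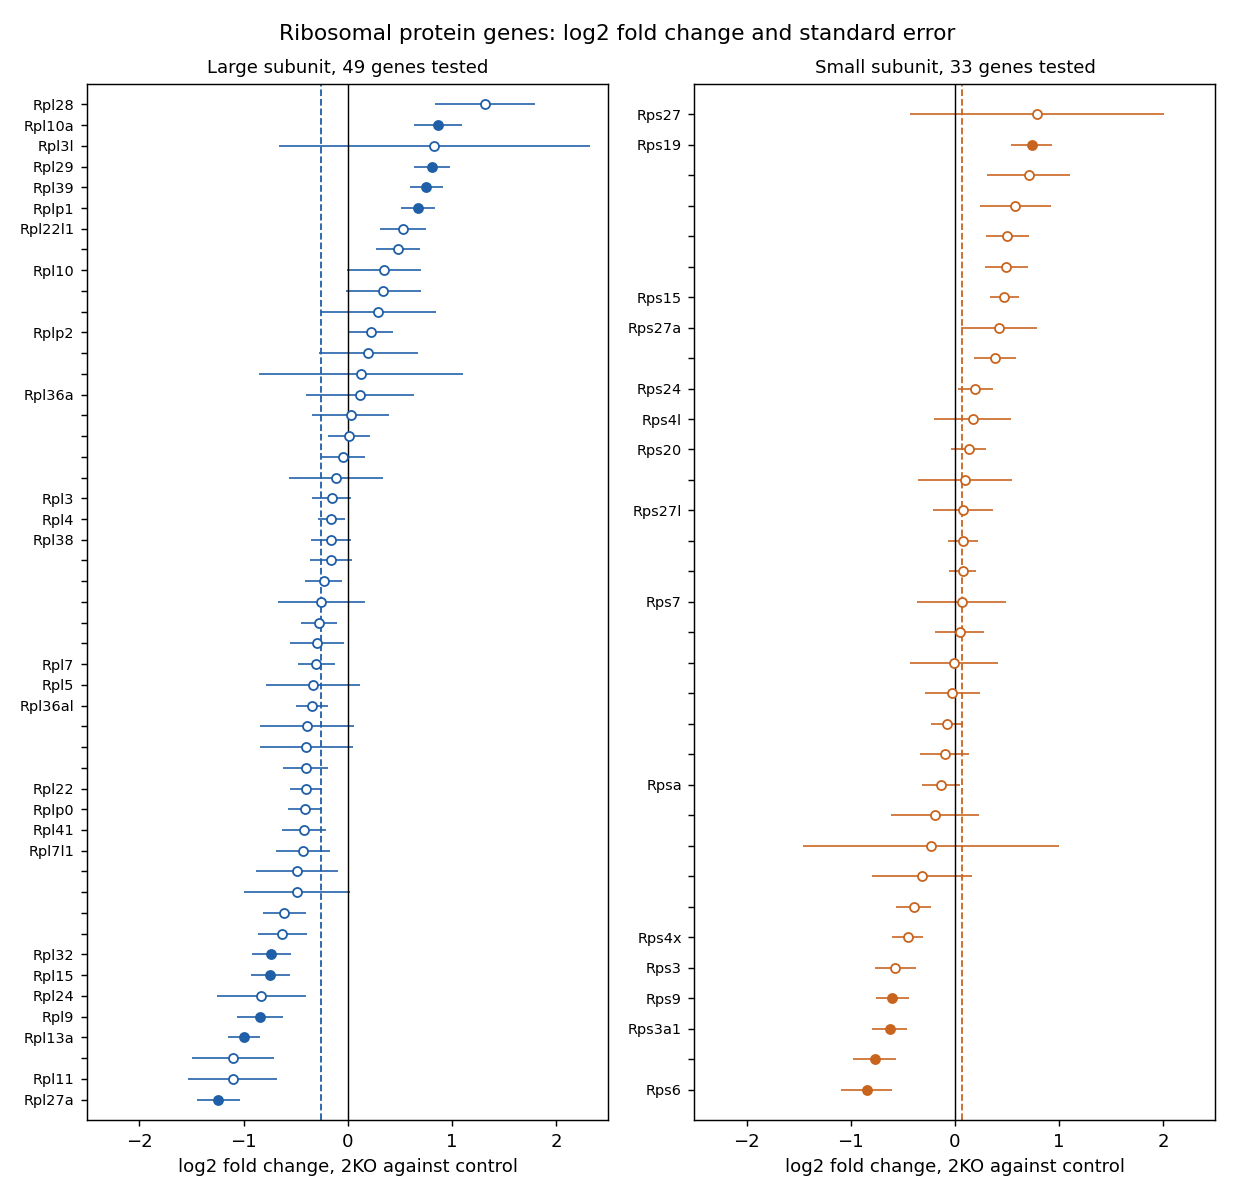
Points are log2 fold changes of 2KO against control with standard errors for 49 large and 33 small subunit genes, filled where the gene passed the test, with names for genes named in the text; the dashed line is the median of the subunit. Filled points lie on both sides of 0 in both subunits, and the large subunit median is at -0.25 and the small one at 0.07.

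The calls depended on single libraries and on the correction used. Without control replicate 1 the test called 8 members higher and 12 lower, without control replicate 2 it called 3 and 5, without 2KO replicate 1 it called 5 and 3, and without 2KO replicate 2 it called 2 and 6. With an offset for GC content and transcript length in each library, 4 rose and 4 fell, beside 5 and 9 without it; that offset moved the median of all genes to -0.14. All 14 called members kept their direction under every alternative on the counts, and Rpl13a, Rpl27a, Rpl29 and Rpl39 also kept their call. On filtered FPKM values Rpl13a, Rpl27a and Rps19 kept their call.

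Rpl27a fell the most. It encodes a large subunit protein, on chromosome 7 at 109519147 to 109522367 of mm10. It measured 79.4 and 109.9 CPM in the controls against 37.3 and 42.5 CPM in the 2KO libraries, 2.37-fold lower (log2 fold change -1.24, standard error 0.206, adjusted p = 0.00347). Rpl13a, on chromosome 7 at 45125558 to 45128761, encodes a large subunit protein also known to bind and silence inflammatory mRNAs once released from the ribosome. It measured 314.8 and 278.1 CPM in the controls against 140.0 and 157.7 CPM in the 2KO libraries, 1.99-fold lower (log2 fold change -0.99, standard error 0.155, adjusted p = 0.00242). For both genes each control library lay far above each 2KO library. Exons of another annotated gene cover 35.4% of the exon bases of Rpl13a, so its counts are uncertain to that extent.

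The other 3 large subunit genes that fell were Rpl9, Rpl15 and Rpl32. Rpl15 measured 81.3 and 106.1 CPM in the controls against 55.7 and 56.3 CPM in the 2KO libraries (log2 fold change -0.74, standard error 0.188, adjusted p = 0.0277). Rpl32 measured 178.4 and 258.9 CPM in the controls against 130.5 and 132.6 CPM in the 2KO libraries (-0.73, standard error 0.188, adjusted p = 0.0298). Rpl9 measured 36.4 and 38.7 CPM in the controls against 22.0 and 19.9 CPM in the 2KO libraries (-0.84, standard error 0.223, adjusted p = 0.0333). The 2KO libraries lay close together for all 3 genes and below both controls. The calls of all 3 ended without control replicate 2, where the adjusted p was 0.102 for Rpl15, 0.13 for Rpl32 and 0.063 for Rpl9. Rpl15 and Rpl9 also missed the threshold without 2KO replicate 1 (adjusted p = 0.079 and 0.0833) and without 2KO replicate 2 (0.0785 and 0.17). With the GC and length offset the adjusted p was 0.0673, 0.062 and 0.0592 in that order. Rpl9 was listed at 0.381 and 0.111 FPKM in control and 0.123 and 0 FPKM in the 2KO libraries, so its FPKM values do not show the difference seen in the counts.

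Among the small subunit genes that fell were Rps6, Rps3a1 and Rps9. Rps6 encodes the subunit protein that S6 kinases phosphorylate in response to growth signals. It measured 29.8 and 39.9 CPM in the controls against 19.3 and 19.4 CPM in the 2KO libraries (log2 fold change -0.85, standard error 0.244, adjusted p = 0.0454). Rps3a1 measured 153.1 and 123.8 CPM in the controls against 86.1 and 93.1 CPM in the 2KO libraries (log2 fold change -0.63, standard error 0.171, adjusted p = 0.0372). Rps9 was the most abundant of these, at 519.0 and 611.4 CPM in control and 337.5 and 408.1 CPM in the 2KO libraries (-0.60, standard error 0.156, adjusted p = 0.0309). The groups did not overlap for any of these. Rps6 and Rps9 were not called without control replicate 2 (adjusted p = 0.178 and 0.0759) and without 2KO replicate 1 (0.133 and 0.176), and Rps3a1 without control replicate 1 (0.114) and 2KO replicate 1 (0.168). Without 2KO replicate 2 the values were 0.14 for Rps6 and 0.0886 for Rps3a1. The GC and length offset ended the calls of Rps6 (0.0608) and Rps3a1 (0.12), and upper-quartile scaling that of Rps6 (0.0593).

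Of the 5 genes that rose, 4 are of the large subunit: Rpl10a, Rpl29, Rpl39 and Rplp1. Rpl29 measured 405.7 and 298.6 CPM in the controls against 567.3 and 664.2 CPM in the 2KO libraries, 1.75-fold higher (log2 fold change 0.81, standard error 0.172, adjusted p = 0.0131). Rpl39, which lines the tunnel through which the new peptide leaves the ribosome, measured 146.1 and 176.2 CPM in the controls against 262.8 and 279.7 CPM in the 2KO libraries, 1.68-fold higher (0.75, standard error 0.158, adjusted p = 0.0121). Rplp1, an acidic protein of the stalk that recruits elongation factors, measured 164.7 and 132.8 CPM in the controls against 229.3 and 245.8 CPM in the 2KO libraries (0.67, standard error 0.163, adjusted p = 0.023). In each of these genes both 2KO libraries exceeded both controls. Rpl10a measured 23.1 and 19.1 CPM in the controls against 38.6 and 38.2 CPM in the 2KO libraries (0.87, standard error 0.227, adjusted p = 0.0322). Rps19, the small subunit gene that rose and the gene most often mutated in Diamond-Blackfan anaemia, measured 40.5 and 36.6 CPM in the controls against 58.6 and 69.7 CPM in the 2KO libraries (0.74, standard error 0.193, adjusted p = 0.0323). Rpl10a, Rplp1 and Rps19 were not called without control replicate 2 (adjusted p = 0.0705, 0.0516 and 0.0565) and without 2KO replicate 2 (0.107, 0.086 and 0.216), and Rpl10a also without 2KO replicate 1 (0.107). With the GC and length offset the value was 0.165 for Rps19 and 0.0501 for Rplp1.

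**Figure D3:**
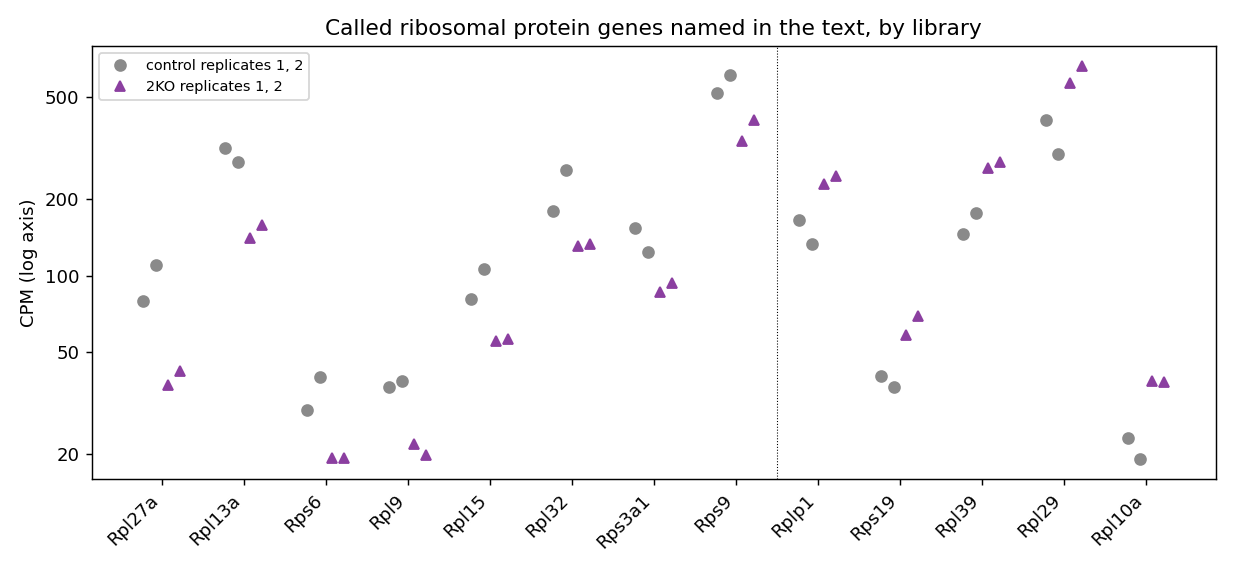
The level in CPM (log axis) of called genes named in the text in each library, with circles for control and triangles for 2KO; genes that fell stand to the left of the dotted line and genes that rose to the right. Circles and triangles do not overlap for any gene, from Rpl27a (79.4 and 109.9 against 37.3 and 42.5 CPM) to Rpl10a (23.1 and 19.1 against 38.6 and 38.2 CPM).

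Rps15 lay just outside the threshold. It encodes a protein of the small subunit head, and measured 297.9 and 300.8 CPM in the controls against 406.4 and 423.4 CPM in the 2KO libraries (log2 fold change 0.47, standard error 0.139, adjusted p = 0.0501). It passed with each of the other scalings (adjusted p from 0.0321 to 0.0493) and with the other filters on low counts (0.0338 and 0.0428). It also passed with DESeq2 (0.0108) and with limma-voom (0.0267). With the GC and length offset the value was 0.215, and by limma on log2(FPKM + 1) it was 0.121. With any 1 library left out Rps15 was not called, with estimates of 0.44 to 0.50. Rps3, chosen here after its values were seen because it was the most abundant small subunit gene by counts, measured 932.8 and 1336 CPM in the controls against 642.1 and 884.4 CPM in the 2KO libraries (-0.57, adjusted p = 0.0828). On all 4 libraries Rps3 passed with no filter on low counts (adjusted p = 0.00184), with DESeq2 (0.0323) and with limma-voom (0.0449). With the GC and length offset the value was 0.116, and by limma on log2(FPKM + 1) it was 0.336. With the replicate number as a block Rps3 passed without that offset (0.0131) and with it (0.0334). It also passed without control replicate 1 (0.0037) and without 2KO replicate 2 (0.00706), but not without control replicate 2 (-0.28, adjusted p = 0.342) or without 2KO replicate 1 (-0.36, adjusted p = 0.304). The highest estimate of each subunit rested on few counts. Rpl28, a large subunit gene, had the highest estimate, 1.32, with 5.09 and 2.82 CPM in control and 7.93 and 11.8 CPM in the 2KO libraries (standard error 0.480, adjusted p = 0.101). Without control replicate 1 it passed the test (adjusted p = 0.0309). Rps27 had the highest estimate of the small subunit, 0.79, on 3 to 18 counts a library (standard error 1.22).

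The stalk of the large subunit is formed by Rplp0, which anchors Rplp1 and Rplp2. Rplp0 measured 384.8 and 420.3 CPM in the controls against 261.4 and 344.3 CPM in the 2KO libraries (log2 fold change -0.41, standard error 0.164, adjusted p = 0.13). Rplp2 measured 32.6 and 35.5 CPM in the controls against 43.0 and 36.3 CPM in the 2KO libraries (0.22, standard error 0.211, adjusted p = 0.551). Only Rplp1 of the 3 passed the test, and differences between the 3 were not tested.

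Several ribosomal proteins have a paralog that can take their place. Rpl22, which is known to repress the mRNA of its paralog Rpl22l1, and Rpl22l1 had estimates of opposite sign. Rpl22 measured 295.0 and 339.3 CPM in the controls against 233.1 and 245.8 CPM in the 2KO libraries (log2 fold change -0.41, standard error 0.148, adjusted p = 0.101). Rpl22l1 measured 23.9 and 26.7 CPM in the controls against 39.0 and 34.1 CPM in the 2KO libraries (0.53, standard error 0.222, adjusted p = 0.145). Neither passed the test on the counts, and the groups did not overlap for either gene. Rpl22l1 passed with the GC and length offset (adjusted p = 0.0186) and on log2(FPKM + 1) (adjusted p = 0.0329), where it was listed at 56.9 and 64.4 FPKM in control and 114.5 and 100.5 FPKM in the 2KO libraries. In 3 pairs the tissue-restricted copy was at or near 0: Rpl10l had no count, Rpl39l had 1 and Rpl3l had 1 to 27 counts a library. Of their partners, Rpl39 rose (0.75, adjusted p = 0.0121), whereas Rpl10 (0.35, adjusted p = 0.574) and Rpl3 (-0.15, adjusted p = 0.653) did not pass the test. Rpl36al stood at 352.2 and 327.6 FPKM in the 2KO libraries and 393.4 and 432.2 FPKM in control (-0.34, adjusted p = 0.179), whereas Rpl36a was listed between 0 and 0.413 FPKM. Rps4x had an estimate of -0.45 (adjusted p = 0.0718, but 0.0336 with DESeq2, 0.0419 with limma-voom and 0.0351 with no filter on low counts) and Rps4l of 0.17 (adjusted p = 0.817). With the GC and length offset the adjusted p of Rps4x was 0.259, and by limma on log2(FPKM + 1) it was 0.293. Rpl7 (-0.30, adjusted p = 0.315), Rpl7l1 (-0.43, adjusted p = 0.321) and Rps27l (0.08, adjusted p = 0.896) did not pass the test either.

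The members with known roles outside bulk protein synthesis gave mixed values. Rpl11 and Rpl5 bind Mdm2, the brake on p53, together with the 5S ribosomal RNA. Rpl11 measured 9.16 and 10.8 CPM in the controls against 3.91 and 5.39 CPM in the 2KO libraries (log2 fold change -1.10, standard error 0.427, adjusted p = 0.119). Rpl5 measured 7.59 and 6.39 CPM in the controls against 6.01 and 5.09 CPM in the 2KO libraries (-0.33, adjusted p = 0.685). Their counts were low and neither passed the test. Rpl38, whose loss alters the axial skeleton of the mouse, measured 49.5 and 46.9 CPM in the controls against 40.8 and 45.5 CPM in the 2KO libraries (-0.16, adjusted p = 0.648). Rpl24, whose mutation gives the Belly spot and tail mouse, had an estimate of -0.83 on 88 to 174 counts (adjusted p = 0.236). Rps20 (0.13, adjusted p = 0.661) and Rps7 (0.07, adjusted p = 0.943), which also bind Mdm2, did not pass. Neither did Rps24 (0.19, adjusted p = 0.494), a Diamond-Blackfan gene, Rps27a (0.42, adjusted p = 0.497), which is made as a fusion with ubiquitin, or Rpsa (-0.13, adjusted p = 0.686), known also as a laminin receptor.

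Levels per transcript length varied widely among proteins that the ribosome holds in near equal number. Mean FPKM over the 4 libraries ranged from 0 to 3054, and 13 of the 86 genes had a mean under 1 FPKM. Rpl41, which encodes a very short peptide, was listed at 2756 and 4045 FPKM in control and 2278 and 3136 FPKM in the 2KO libraries. In the small subunit Rps9 was listed at 1200.5 and 1469.9 FPKM in control and 872.3 and 1014 FPKM in the 2KO libraries. Rpl9, Rpl24, Rpl28 and Rpl36a all had a mean under 1 FPKM. Counts and FPKM also ranked genes differently. Rpl30 had 8 and 5 counts in control and 8 and 3 in the 2KO libraries, but was listed at 42.4, 54.7, 74.6 and 56.9 FPKM in that order.

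Ribosomal protein genes have many processed copies in the genome, and how the authors treated reads that match several places is not given in the sources used here. To describe this, each 100-base window of a member's transcript, the length of a read, was matched with up to 2 mismatches to the transcripts of other annotated genes. The median member shared 51.6% of its windows with another locus. No window of Rpl3l or Rpl39l was shared, 2.43% were for Rps3, and at the other end 93.1% were for Rpl9 and 100% for Rps27. Across the 86 genes, the log2 of mean FPKM and the share of windows had a Pearson correlation of -0.19, given as a description since the genes share libraries and families. Among tested members with at least 50% of windows shared, 4 rose and 4 fell of 43; among the others, 1 rose and 5 fell of 39. Of the 4 genes that kept their call on the counts, Rpl39 shared 11.3% of windows, Rpl27a 34.2%, Rpl13a 36.9% and Rpl29 73.0%. The part of such copies in any difference between groups was not tested.

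**Figure D4:**
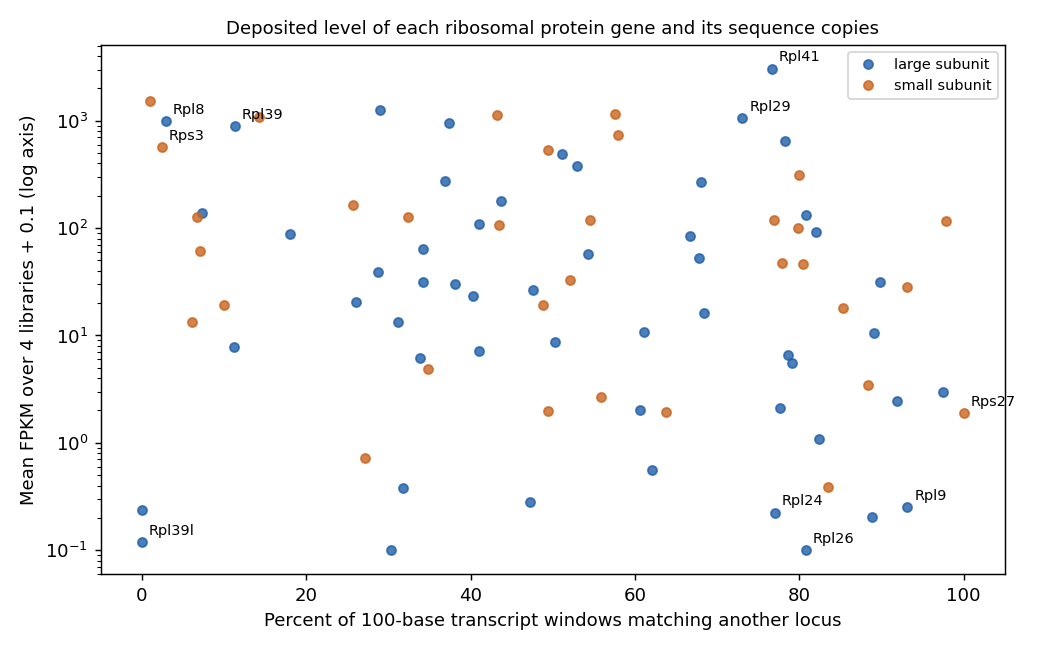
Each point is 1 of the 86 genes: its mean FPKM over 4 libraries plus 0.1 (log axis) against the percent of 100-base windows of its transcript that match another annotated gene. Levels spread over more than 3 powers of 10 at low and high shares, with Rps3 (2.43% of windows) and Rpl41 (76.6%) both above 500 FPKM.

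The pyrimidine run at the start of these mRNAs was looked for in RefSeq start sites of GRCm38.p6. That is a release of GRCm38, the build that the processing notes name as mm10. The letters CTTTC or CTTTT were searched on the sense strand from 30 bases before to 50 bases after each start. They were present in 40 of 65 members with an entry (61.5%), beside 5348 of 27025 genes (19.8%) in the whole table and 16.5% of tested genes. The share was 26 of 41 in the large and 14 of 24 in the small subunit. A gene with several annotated starts counted if any of them matched. Among called members with an entry, the letters were present in all 3 that rose and in 4 of 7 that fell. They began 21 to 43 bases after an annotated start in the 3 that rose (Rpl10a, Rpl39 and Rps19). In the 4 that fell they began 2 to 9 bases after it. Among members that did not pass the test the position ranged from -30 (Rpl35a) to 45 (Rps23) bases relative to an annotated start. Differences in position were not tested. To let the starts be compared, 30 bases are shown for 3 genes that fell (Rpl27a, Rpl13a, Rpl15), 1 that rose (Rpl10a) and 2 that did not pass the test (Rpl38, Rplp2), with the matching letters in capitals.
Rpl27a: tcctccCTTTTccctttctgccaccgccat
Rpl13a: ctcctcCTTTCccaggcggctgccgaagat
Rpl15: ttcttcCTTTCctctggcggcagccatcag
Rpl10a: tgccttCTTTCcggtttccgcggcagccgc
Rpl38: ctcgttCTTTCcccgttctcttcggttctc
Rplp2: gtcttcCTTTCgccgccggacgccgccgag
They lie at chr7:109519192-109519221 on the plus strand for Rpl27a, chr7:45128713-45128742 on the minus strand for Rpl13a and chr14:18270959-18270988 on the minus strand for Rpl15. The others lie at chr17:28328580-28328609 on the plus strand for Rpl10a, chr11:114668574-114668603 on the plus strand for Rpl38 and chr7:141447645-141447674 on the plus strand for Rplp2. The capitals began 3, 9, 4, 21, 0 and 0 bases after the annotated start in the order shown. The letters were thus found in genes that fell, in a gene that rose and in genes that did not pass the test. A match describes the letters only.

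Some ribosomal protein genes carry small nucleolar RNAs or other small RNAs in their introns, which guide changes to ribosomal RNA. By the annotation, 31 tested members hosted such an RNA. Of these 1 rose (Rpl39) and 5 fell, among them Rpl13a, Rpl27a, Rpl32 and Rps3a1, with 23 negative of 31 and a median log2 fold change of -0.19. Among the 51 other tested members 4 rose and 4 fell, with a median of 0.04. The difference was not tested. Host genes made mainly for their small RNAs, 13 of which were tested, had a median of 0.01, and 1 of them passed. This was Gas5, a spliced RNA that also begins with a pyrimidine run and is degraded when it is translated. It measured 360.8 and 322.3 CPM in the controls against 114.0 and 106.5 CPM in the 2KO libraries, 3.10-fold lower (log2 fold change -1.63, standard error 0.153, adjusted p = 0.000151). Its call held without each library in turn.

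GC content moved weakly with the fold change. Among the 82 tested members the Pearson correlation of log2 fold change with transcript GC content was 0.19, and among 15214 tested genes with a value it was 0.16. Members at or above the median GC content of the family gave 4 risen and 3 fallen of 42, and the others 1 risen and 6 fallen of 40. Whether GC content or amplification played a part was not tested beyond the offset above.

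Genes that make and use ribosomes were then counted from lists, for which no list test was run. Of all genes tested, 7.00% rose and 4.92% fell, with a median log2 fold change of 0.01. Of 78 genes for mitochondrial ribosomal proteins, which form a separate ribosome, 1 rose and 1 fell, with a median of -0.24. Mrpl52 measured 28.7 and 28.1 CPM in the controls against 56.3 and 51.7 CPM in the 2KO libraries (log2 fold change 0.93, adjusted p = 0.0135), and Mrps7 had an estimate of -0.88 (adjusted p = 0.0324). Each missed the threshold without 2KO replicate 1 (adjusted p = 0.0636 and 0.102), and Mrps7 also without 2KO replicate 2 (0.136) and control replicate 2 (0.072). Without control replicate 1, 8 of the 78 fell and 2 rose, and with the GC and length offset 4 fell and 1 rose. The 3 cytoplasmic ribosomal protein genes outside the symbol rule included none that passed; Rack1 had an estimate of -0.20 (adjusted p = 0.43).

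Of 16 genes for RNA polymerase I and its factors, 1 fell and none rose, with a median of -0.14. It was Ttf1, which ends transcription of ribosomal RNA genes, at 22.3 and 26.5 CPM in control and 9.63 and 12.6 CPM in the 2KO libraries (log2 fold change -1.13, adjusted p = 0.0261). Without 2KO replicate 1 (adjusted p = 0.139) and control replicate 2 (0.0534) it was not called. None of the 16 was called higher beside the higher share of Rn45s.

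Of 80 genes of ribosome biogenesis, 6 fell and none rose; 59 were negative and the median was -0.26. Eif6, which keeps the young large subunit from joining the small one, measured 112.8 and 121.7 CPM in the controls against 61.9 and 48.9 CPM in the 2KO libraries, 2.12-fold lower (log2 fold change -1.08, standard error 0.182, adjusted p = 0.00386). Its call held without each library in turn. Dkc1 and Gar1, of the particle that makes pseudouridine, had estimates of -0.84 (adjusted p = 0.0112) and -0.72 (adjusted p = 0.025), and Ebna1bp2 of -0.71 (adjusted p = 0.0292). The other 2, named after their values were seen, were Bms1 (-0.66) and Lsg1 (-0.70). The number that fell was 9 without control replicate 1, 4 (with 3 higher) without control replicate 2, 1 without 2KO replicate 1 and 2 without 2KO replicate 2. With the GC and length offset it was 13, and on log2(FPKM + 1) it was 1. None of 7 chaperones of ribosomal proteins passed (median -0.24); Nap1l1 had an estimate of -0.37 (-0.17 with the offset) and Heatr3 of -0.61.

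Of 35 translation initiation factors, 3 fell and none rose, with a median of -0.21. Eif3a, a core subunit of the factor that holds the small subunit, measured 956.3 and 1064 CPM in the controls against 710.5 and 672.1 CPM in the 2KO libraries (log2 fold change -0.55, adjusted p = 0.0243). Eif1ax (-0.80, adjusted p = 0.0333) and Eif3m (-0.74, adjusted p = 0.0372) also fell. Of 14 elongation and termination factors, 2 fell and none rose, with a median of -0.31: Eef1b2 (-0.64, adjusted p = 0.021) and Gspt1 (-0.52, adjusted p = 0.0483). Without 2KO replicate 1 only 1 initiation factor and 0 elongation or termination factors fell, and without control replicate 2 the numbers were again 1 and 0. Without 2KO replicate 2 they were 2 and 1, and without control replicate 1 they were 6 and 3, with 3 initiation factors higher. With the GC and length offset Eif3m (adjusted p = 0.129), Eef1b2 (0.0557) and Gspt1 (0.0682) missed the threshold. On log2(FPKM + 1) limma called none of either list.

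None of 16 growth regulators of ribosome production, from the Myc and mTORC1 pathways, passed the test, and their median was 0.06. Larp1, which binds the pyrimidine run, measured 357.0 and 338.9 CPM in the controls against 314.0 and 335.1 CPM in the 2KO libraries (log2 fold change -0.10, adjusted p = 0.699). With the GC and length offset, which moved the median of all genes to -0.14, the estimate of Larp1 was -0.49 (adjusted p = 0.0641). Eif4ebp2 had an estimate of 0.46 (adjusted p = 0.0874), and of 0.26 (adjusted p = 0.366) with that offset. Without control replicate 1 the test called 2 of the 16 higher, and 1 without control replicate 2 or without 2KO replicate 1.

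Genes switched on by p53 were counted because free ribosomal proteins can restrain Mdm2. Of 18 tested, 6 rose and none fell, with a median of 0.32. The other 12 did not pass the test, and 5 of the 18 had a negative log2 fold change. Pmaip1, which promotes cell death, measured 34.4 and 27.2 CPM in the controls against 89.0 and 78.8 CPM in the 2KO libraries, 2.72-fold higher (log2 fold change 1.44, standard error 0.199, adjusted p = 0.00115). Tnfrsf10b, a death receptor, measured 17.9 and 11.2 CPM in the controls against 40.0 and 32.3 CPM in the 2KO libraries (1.31, adjusted p = 0.0136). Both calls held without each library in turn and with the GC and length offset. Ccng1 (0.88, adjusted p = 0.0136) and Bbc3 (1.24, adjusted p = 0.018) also rose, as did Zmat3 (0.79) and Sesn2 (1.34), named after their values were seen. The number that rose was 10 without control replicate 1 and 3 with the GC and length offset, where 1 gene of the list fell; Bbc3 then had an estimate of 0.37 (adjusted p = 0.43), Sesn2 of 0.86 (adjusted p = 0.0701) and Zmat3 of 0.55 (adjusted p = 0.089). Ccng1 was not called without 2KO replicate 1 (adjusted p = 0.0673), nor Bbc3 without 2KO replicate 2 (0.149). The medians and counts of all these lists stood beside a median of 0.01 for all genes tested, of which 7.00% rose and 4.92% fell. The share called in either direction was 11.9%.

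**Figure D5:**
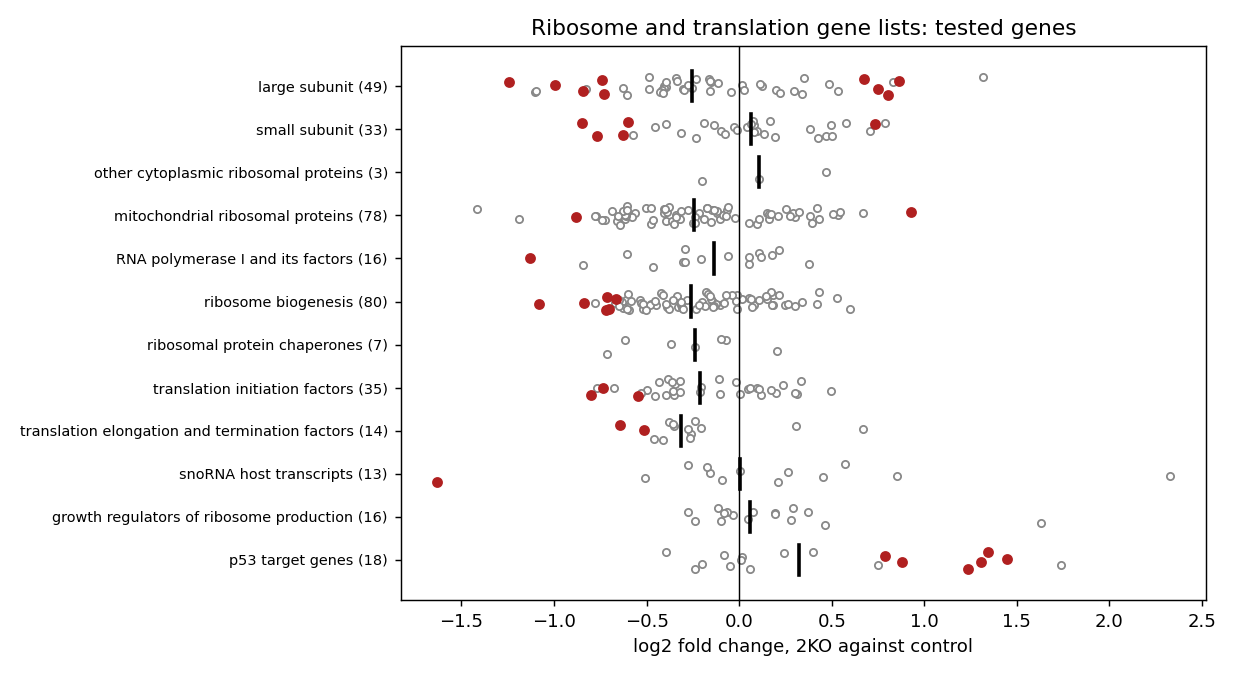
Points are log2 fold changes of the tested genes of each list, filled red where the gene passed the test, with the median as a black bar and the number tested in brackets. Filled points lie below 0 for ribosome biogenesis, initiation and elongation factors, above 0 for p53 target genes, and on both sides for both ribosomal subunits.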

How the data were processed

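RNA from the sorted cells was converted to cDNA and amplified before sequencing as 100-base single reads, per the labels' protocols; reads are thus not independent molecules. The deposited files give a whole-number count and an FPKM value per gene, made by the authors. HTSeq 0.6.1, DESeq2 1.6.3, Cufflinks 2.2.1 and TopHat2 2.0.13 are named with mm10, per the submitters' processing notes. The FPKM values are labelled as cuffnorm output. The sources used here do not give the tool behind the counts, the annotation, the strand setting or the handling of reads with several matches.

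Counts of all 24453 genes were fitted with edgeR 4.0.16 in R 4.3.3 (TMM scaling, filterByExpr, quasi-likelihood test, two-sided, group only), with Benjamini-Hochberg adjustment over 15336 tested genes and a threshold of 0.05; adjusted p-values come from this test where no other is stated. CPM uses TMM-scaled library sizes. Replicates of a group differed far beyond sampling noise (chi-square per degree of freedom 29.6 in control, 23.6 in 2KO). Over the ribosomal protein genes alone the values were 73.2 in control and 28.2 in 2KO. The members and gene lists were chosen with earlier results of these data known. Named genes are called members, the 3 most abundant of each subunit, the extremes of each subunit, stalk genes, paralog pairs, members with known extra roles, Rn45s, and at most 4 called genes (or the 2 most abundant) of each list. Symbols were matched to GENCODE M21: 23797 directly, 289 through an older symbol and 367 not at all. Windows were matched with bwa 0.7.19. On simulated counts for this comparison, with 14940 genes run, 28% of 100 genes changed 2-fold and 62.6% of 99 changed 4-fold were recovered, with 0 of wrong sign. Alternatives were RLE, upper-quartile and other scaling, other filters, DESeq2 1.42.0, limma-voom and limma-trend (limma 3.58.1) on log2 FPKM with pseudocounts of 1 and 0.1, a GC content and length offset, the replicate number as a block, and each library left out. Some members are not reported here by name. No value column of the files was left unmapped.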

Additional observations from a re-analysis of the deposited data

How the results depend on the processing

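With 2 libraries a group the counts of calls were unstable. Beside 5 members higher and 9 lower, leaving out each library in turn gave 2 to 8 higher and 3 to 12 lower, a large subunit median log2 fold change of -0.26 to -0.15 and a small subunit median of -0.049 to 0.11, negative only without 2KO replicate 2. The GC content and length offset gave 4 lower, and with the replicate block added 7 higher and 9 lower and a large subunit median of -0.19; Rpl9 (adjusted p = 0.0313), Rpl15 (0.0412), Rpl32 (0.0257), Rps6 (0.0238) and Rplp1 (0.031) then passed again. On FPKM filtered at 1 in 2 libraries, limma-trend called 3 higher and 2 lower with a pseudocount of 1, with medians of -0.039 (large) and 0.17 (small), and as many with a pseudocount of 0.1, with medians of -0.042 and 0.17. Without that filter it called 0 higher and 0 lower, with 20 members at an unadjusted p under 0.05 and medians of -0.044 and 0.16. Labels share replicate numbers only. Deviations of same-numbered libraries had a correlation of -0.035 over 14187 genes and of 0.22 over the 82 tested members. The numbers were not treated as pairs; the replicate block in edgeR gave 6 higher and 10 lower. Other scalings, filters and tools gave 6 or 7 higher and 8 to 12 lower. As a share of counts without Rn45s the large subunit difference (2KO mean minus control mean) was -0.064 percentage points, beside -0.093 of all counts.

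Some uncalled members changed sign, and none of these values passed. On log2(FPKM + 1), filtered or not, and on log2(FPKM + 0.1), Rpl5 was at 0.20 and Rpsa at 0.013, and Rps7 at -0.19 and -0.30 for the 2 pseudocounts. On unfiltered FPKM Rpl3l was at -0.075, Rpl36a at -0.25 and Rpl24 at 0.034. With the GC content and length offset Rps4l was at -0.14 without and with the replicate block. Leaving out each library in turn gave -0.32 to 0.68 for Rps27l, -0.34 to 0.15 for Rpsa, -0.20 to 0.38 for Rpl36a, -2.65 to 2.21 for Rpl3l, -0.062 to 0.18 for Rps7 and -0.0097 to 0.31 for Rps20. The cause of these changes was not tested.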
